A study of Gallus gallus with 54 samples.

Results

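Messenger RNA of chicken heart (Gallus gallus) was compared between indigenous Ethiopian birds of low and of high altitude origin, using the 18 heart libraries among the 54 libraries of the study. The libraries were chosen by their titles, which carry a letter for the altitude (H or L), a number from 1 to 9 and the tissue. The 9 high altitude libraries, H1 to H9, came from birds that the labels call not adapted to heat, and the 9 low altitude libraries, L1 to L9, from birds called adapted to heat. Breast muscle and spleen, with 18 libraries each, made up the rest of the series. The labels give no treatment, time, age, sex or breed name, and altitude of origin and heat adaptation go together in every library, so the parts of either cannot be told apart. Nothing in the labels says that the 9 libraries of a group are 9 separate birds, and p-values therefore measure the spread between libraries.

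The heart is a muscle that contracts without rest and lives on oxidative metabolism, and messages for contractile proteins and for mitochondrial energy production are known to be plentiful in it. It also holds vessel, connective tissue, immune and blood cells, and messages of all of these enter a library of whole tissue. Oxygen supply at altitude and heat load at low altitude both act on the heart and circulation, and the comparison of origins asks which messages differ between such birds. In whole tissue, fewer cells of a type and less RNA per cell cannot be told apart.

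The files identify genes by Ensembl chicken identifiers without gene names. Of the 24881 identifiers, 0 were found in the reference table of 25635 genes, so no gene name or function is given here, and markers of heart muscle or of other cell types could not be looked up. In place of markers, each heart library was set against all 54 libraries. All 18 correlated best with another heart library. Across the 14176 genes used, the lowest Spearman correlation between 2 hearts was 0.882 and the highest between a heart and another tissue was 0.829.

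Heart libraries held 12.4 to 15.2 M (mega) counts. The low altitude libraries were deeper, at 14.6 ± 0.668 M (SD, n = 9) and 13.5 ± 0.873 M (n = 9) in turn (two-sided exact permutation p = 0.0109). Adjusted over the 7 library measures tested, this gave 0.076. With 1 library left out, the adjusted exact permutation p was under the threshold of 0.05 without H2 (0.0112) and without L4 (0.0323). It did not pass in the other 16 cases, where it reached 0.15. The deeper group had no higher mean number of genes detected. At low altitude 15780 ± 411 genes had at least 1 count, and at high altitude 15910 ± 309 (SD, n = 9 each; exact permutation p = 0.472). After every library was thinned to the smallest heart total the means were 15560 and 15800 (exact permutation p = 0.182). The 20 most abundant genes held 39.7% to 61.4% of a library's counts at low altitude and 29.9% to 56.2% at high altitude (exact permutation p = 0.365, n = 9 each).

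L4 stood apart from the other hearts. Its median Spearman correlation with the other heart libraries was 0.892, while the other 17 ranged from 0.917 in H1 to 0.957 in H2. On the first principal component, which held 21.5% of the variance between hearts, L4 scored 93.6 and the next low altitude library, L5, 26.3. The altitudes did not differ past the threshold on the first or the second component (exact permutation p = 0.241 and 0.219, n = 9 each; 17.2% of the variance on the second). The second component was highest in H4, H7 and H1, at 57.2, 52.7 and 44.3, and L3 followed at 24.6. Since L4 and these libraries are named again below, results are also given without a library where that changed them.

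The library that was highest or lowest in a gene was very often the same one. L4 was the highest of the 18 hearts in 2567 genes and the lowest in 2594, together 43.5% of the 11872 genes tested, where an even share would be 11.1%. L5 was the extreme library in 23.9% of genes and H1 in 21.6%. L6 was it in 2.73%, the fewest. The other 14 libraries lay between 4.25% and 11.5%.

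**Figure D1:**
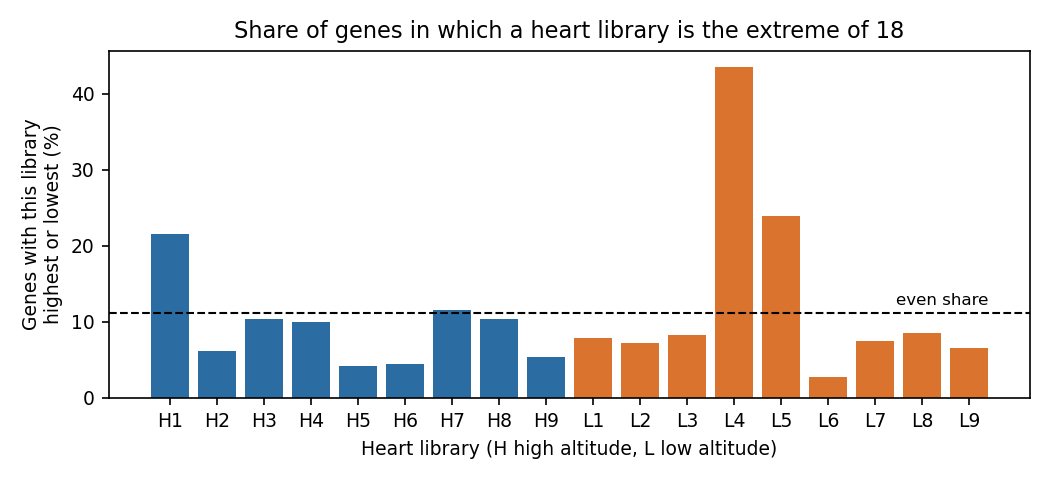
Percent of the 11872 genes tested in which each heart library (x axis; blue, high altitude; orange, low altitude) was the highest or the lowest of the 18 (y axis), with the even share of 11.1% as a dashed line. L4 at 43.5%, L5 at 23.9% and H1 at 21.6% stand well above the line.

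The first comparison was that of every gene between the altitudes, by edgeR's quasi-likelihood test on the heart libraries alone. Differences are log2 fold changes of low over high altitude, and a gene passed where its Benjamini-Hochberg adjusted p was under 0.05. Of 11872 genes, 0 passed by edgeR (0%; smallest adjusted p 0.247), 0 by limma-voom and 22 by DESeq2. An unadjusted p under 0.05 was found by edgeR for 718 genes (6.05%), where 593.6 would be found with no difference. Of these, 388 (3.27%) were higher and 330 (2.78%) lower at low altitude. This balance was not steady: without L4, over the same genes, 339 were higher and 480 lower, and with log2 total count as a covariate 516 were higher and 233 lower. At a p under 0.01 there were 143 against 118.72, and at a p under 0.001 there were 18 against 11.872. No single gene can be said to differ between the altitudes by this test. With all libraries, the lower end of the p-values held slightly more genes than the number given by no difference. Genes are not independent of each other, so this is not read as an excess. The 718 became 1308 without H3 and 476 without H8. Counted over the same 11872 genes, it was 473, 534, 561, 562 and 564 without H8, L2, H4, H7 and L1 in turn. Each of these was under 593.6, and the count was above it without any other library.

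The 22 genes called by DESeq2 were 8 higher and 14 lower at low altitude, with log2 fold changes of 0.82 to 3.58 in size. By edgeR the unadjusted p of the same genes ran from 3.18e-05 to 0.944. The same gene could thus be called by DESeq2 and lie far from the threshold by edgeR. DESeq2 was run with its default settings, under which counts far outside their group can be replaced before the test. The edgeR fit replaced no counts. Whether this set the calls apart was not tested.

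Most differences were small, and the data were precise enough to bound them. The median log2 fold change was 0.00, which the scaling between libraries holds near 0, and the median size 0.17. The lower and upper quartiles were -0.17 and 0.18, and the median half-width of a gene's 95% confidence interval was 0.49. For 9539 genes, 80.3% of those tested, the whole interval lay within a 2-fold difference either way. For 4343 genes, 36.6%, it lay within a 1.5-fold difference. A gene without a call is therefore bounded to under 2-fold in most cases, though not in the genes of fewest reads. Levels are given in log2 CPM, counts relative to the library's total over the genes tested after scaling between libraries. Of genes with an average level under 0 log2 CPM, 48.5% were bounded in this way, against 90.1% of those between 4 and 6. The share did not rise throughout with reads, as it was 64.6% in genes of 8 log2 CPM and over. Within 1.5-fold, 17.8% of those were bounded, against 56% between 4 and 6.

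A few genes differed by 2-fold or more. There were 178 of these (1.5%), 76 higher (0.64%) and 102 lower (0.859%) at low altitude, and the fold changes reached 3.12 and -4.03 on the log2 scale. They were of fewer reads than the rest, with a median average level of 2.25 against 3.59 log2 CPM over all genes tested. They also varied more between libraries. Their median SD was 1.28 log2 units within high altitude and 0.98 within low altitude, against 0.44 and 0.51 over all genes.

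Many of these differences did not stay at 2-fold when medians were taken or a library was left out. A gene just over a cut-off can fall under it without any 1 library, so a loss alone does not show that the difference rested on that library. This holds for a cut-off on p as well. Of the 178, the group medians were also 2-fold or more apart in the same direction in 65 (29 higher and 36 lower at low altitude). In 61 of them (29 higher and 32 lower) the difference stayed at 2-fold or more whichever library was left out. The most were lost without H1, where 51 of the 178 fell under 2-fold. Without L4 it was 32, without H4 30 and without H7 28, while H9 took only 3 with it. Without L3, 282 genes were 2-fold apart. Of the 718 genes with an unadjusted p under 0.05, 265 (36.9%) kept it in all 18 fits that each left out 1 library, 134 with a positive and 131 with a negative fold change.

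No gene separated the altitudes fully. In 0 of 11872 genes (0%) did all 9 low altitude libraries lie above, or all below, the 9 high altitude ones, and this number was 0 to 2 when any 1 library was left out and 4 without both L4 and H1. In 121 genes (1.02%) at least 6 of the 9 low altitude libraries lay beyond every high altitude library on the same side, 53 of them (0.446%) above and 68 (0.573%) below. The number given by no difference was not computed for this count or for full separation. Neither is therefore read as a result about altitude. Leaving out a high altitude library changes the bar, since only 8 high altitude libraries then have to be cleared. The count of 121 rose whichever of them was left out, so a rise alone does not single out a library. The highest counts were 449 without H3, 192 without H1 and 182 without H9. With a low altitude library left out, at least 6 of only 8 were asked for, and the count fell in every case. It lay between 35 and 49 with 1 of L1 to L6 left out in turn.

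The direction of the difference went with the abundance of the gene. Genes were put in 6 bands of average log2 CPM, which measures reads and not messages, since gene length was not used. Of the 370 genes of 8 log2 CPM and over, 315 (85.1%) were higher at low altitude, with a median log2 fold change of 0.32. Between 6 and 8 it was 65.5% of 1110 genes, with a median of 0.08. Between 4 and 6 it was 53.8% of 3519 genes. In the 3 lower bands the balance was the other way, with 44.9%, 44.8% and 44.4% higher at low altitude and medians of -0.03, -0.04 and -0.08. The scaling between libraries holds the bulk of genes near 0. The balance in the lower bands is therefore relative to that scaling and no separate observation. Without L4 the share between 6 and 8 was 57.4%, and the share between 4 and 6 turned to 48.6%. Genes are not independent of each other, and no test is attached to these shares.

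**Figure D2:**
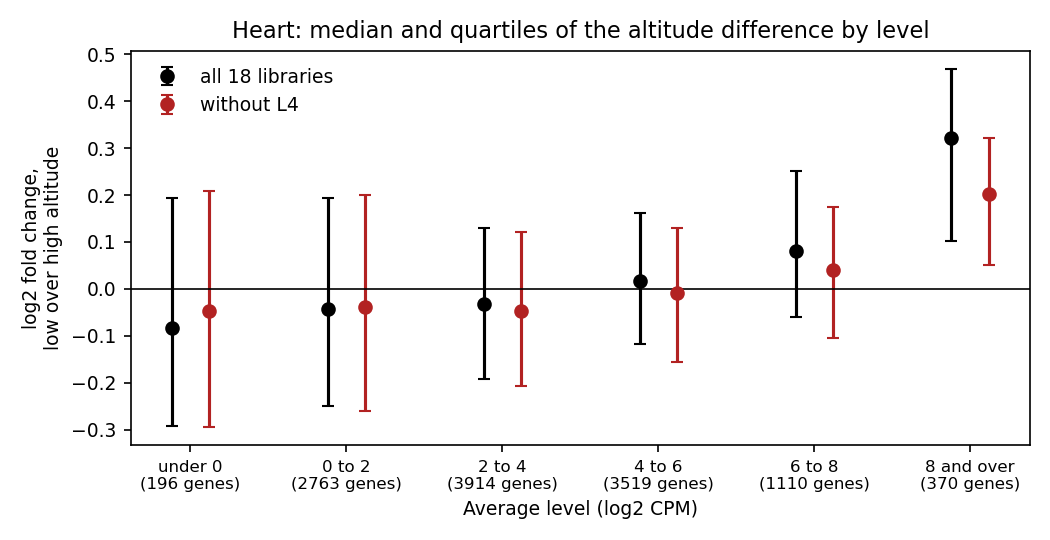
Median (point) and quartiles (bars) of the log2 fold change of low over high altitude (y axis) for heart genes in 6 bands of average log2 CPM (x axis), with all 18 libraries (black) and without L4 (red). The median is near 0 up to 6 log2 CPM and reaches 0.32 in the top band, or 0.20 without L4.

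The tilt of the abundant genes kept its direction in all 29 alternative fits, while its size did not. All these fits reuse the same libraries, so the kept direction is no independent support. In the mean log2 CPM of the 370 genes in each library, the altitudes overlapped. Every low altitude library lay above H1, H4, H6, H7 and H8, which had 8.73 to 8.98. But L9, at 9.01, lay below H9, H5, H2 and H3, at 9.03, 9.07, 9.13 and 9.64. The highest library was L4, at 9.86. Without L4, 80.3% of the 370 were higher at low altitude and the median was 0.20. Without both L4 and H1, the pair of lowest correlation with the other hearts, the values were 79.2% and 0.17. With log2 total count as a covariate, which takes the deeper low altitude libraries into account, they were 80.3% and 0.27. Over the 18 fits that each left out 1 library the share was 80.3% to 86.5%. In 265 of the 370 genes the fold change was above 0 in all 18 of those fits, and in 31 it was below 0 in all. Those fits share most of their libraries, so these counts are no independent support either. With all libraries, 0 of the 370 were 2-fold or more higher at low altitude and 5 were 2-fold or more lower. These were 1.35% of the band.

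The number of abundant genes with a low p was less steady than their direction. In the top band 40 genes had an unadjusted edgeR p under 0.05 and were higher at low altitude, and 4 were lower, so that 11.9% of the band was under that p, against 6.05% over all genes. The smallest adjusted p in the band was 0.535. Only 2 genes of the band were higher with an unadjusted p under 0.05 in all 18 fits that each left out 1 library. Without L4 there were 7 higher and 8 lower, or 4.05% of the band. Without H3 there were 160 higher and 7 lower. With 1 of H1, H4, H6, H7, H8 or L2 left out, the number higher was 14 to 25, and it was 72 without L7 and 62 without L9. Leaving out L4 removed most of the low p-values in the higher direction, and leaving out H3 multiplied them.

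**Figure D3:**
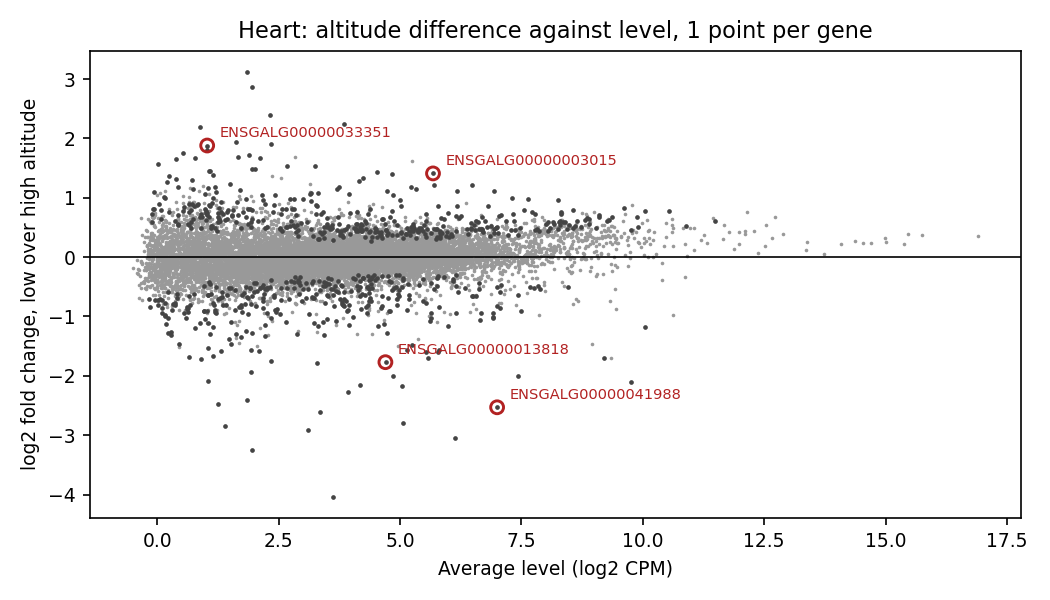
Log2 fold change of low over high altitude (y axis) against average level in log2 CPM (x axis) for the 11872 genes tested in heart, 1 point per gene, darker where the unadjusted edgeR p was under 0.05, with the 4 named genes circled. The cloud lies around 0 at low levels and mostly above 0 at 8 log2 CPM and over, and the genes farthest from 0 lie mostly at low and middle levels.

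Read as shares of the library, where the genes of most reads weigh most, the same abundant genes held 73.4% ± 3.46 of the counts at low altitude. At high altitude they held 69.2% ± 6.35 (SD, n = 9 each). This difference of 4.12 percentage points did not pass (exact permutation p = 0.107, adjusted over the 6 bands 0.137), and it was 2.84 to 5.02 points with any 1 library left out. At low altitude the shares ran from 68.2% in L3 to 80.1% in L2. At high altitude they fell in 2 sets: H4, H1, H8 and H7 held 59.0%, 62.8%, 64.2% and 65.5%, and the other 5 libraries 73.0% to 76.4%. Every low altitude share lay above those 4, and all but L2 lay within or below the range of the other 5, so the groups overlap. Genes between 2 and 4 log2 CPM held 3.88% at high altitude and 3.21% at low altitude (exact permutation p = 0.0745, adjusted 0.137, n = 9 each). All bands share 1 library total, so a larger share of the top band leaves less for the others. The smaller share of this band is therefore no separate observation.

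**Figure D4:**
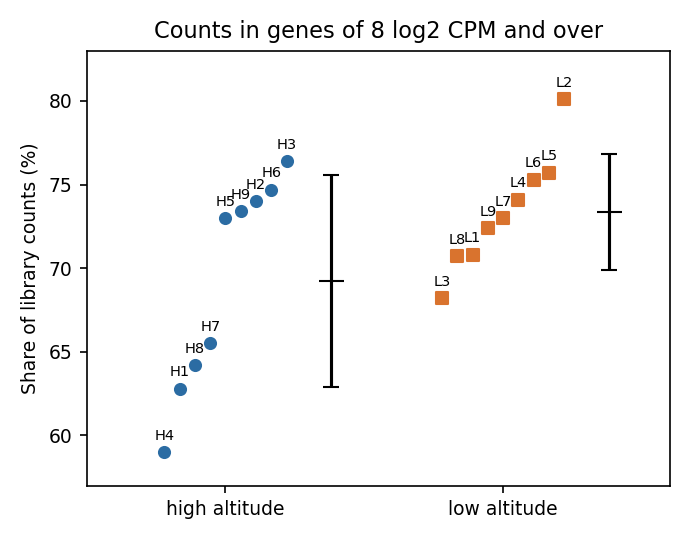
Share of each heart library's counts held by the 370 genes of 8 log2 CPM and over (y axis, percent; the axis does not start at 0), 1 labelled point per library by altitude, with the mean and SD of 9 libraries beside them. H4, H1, H8 and H7 lie at 59.0% to 65.5%, below every low altitude library, and the remaining high altitude libraries lie among the low altitude ones.

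Spread between libraries was the scale against which all of this was read. The median SD of a gene was 0.51 log2 units within low altitude and 0.44 within high altitude, and 62.8% of genes had the larger SD at low altitude. That order rested on L4: without it, over the same genes, the low altitude median was 0.41 and 43.3% had the larger SD at low altitude. Spread was least for genes between 4 and 6 log2 CPM, with 0.36 at high and 0.43 at low altitude. It was 0.59 and 0.65 between 0 and 2. It was again larger in the top band, with 0.52 and 0.53, or 0.39 at low altitude without L4.

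The 2 identifiers with the smallest p in each direction, among genes of an average level of at least 1 log2 CPM, show what the strongest differences looked like in single hearts. Because they were chosen by p in these same libraries, their fold changes and intervals are no independent evidence of a difference. ENSGALG00000041988 had the smallest p of all. Its level at high altitude was lowest in H6, at 5.54 log2 CPM, had a median of 7.09 and was highest in H1, at 9.25. At low altitude it ran from 3.65 in L4 through a median of 5.05 to 6.40 in L9. In 6 of 9 low altitude libraries it lay below every high altitude library, and all 9 lay below the high altitude median. The overlap came from both groups: L3, L5 and L9 had 5.60, 5.61 and 6.40, and H6, H5 and H9 had 5.54, 5.73 and 6.24. The high altitude values were uneven, with H8, H2 and H4 at 8.43, 8.27 and 8.16 and H3 at 6.67. In counts this was 634 to 10638 at high and 119 to 1246 at low altitude. The fitted difference was -2.53 (SE 0.48, 95% interval -3.53 to -1.54), or 5.78-fold lower at low altitude. Its edgeR adjusted p was 0.247, and 0.0985 to 0.726 with any 1 library left out.

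ENSGALG00000013818 was also lower at low altitude, and its high altitude values were uneven. H4 had 6.87 log2 CPM, H8, H7 and H1 had 5.79, 5.69 and 5.65, and the other 5 high altitude libraries had 3.28 to 4.93. The low altitude libraries ran from 2.90 in L2 through a median of 3.41 to 4.58 in L9. The high altitude libraries with the highest values are those with the smallest share of counts in abundant genes. Of the other 5, H9 at 4.93 lay above every low altitude library, and the rest lay within the low altitude range. Only 3 of 9 low altitude libraries lay below every high altitude one. The difference was -1.77 (SE 0.40, 95% interval -2.60 to -0.93; edgeR adjusted p = 0.486). With log2 total count as a covariate it was -0.68 (edgeR adjusted p = 0.73), and the values of the other 3 named genes moved less with this covariate.

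ENSGALG00000003015 had the smallest p among genes higher at low altitude with an average of at least 1 log2 CPM. At high altitude it ran from 3.75 log2 CPM in H1 through a median of 4.82 to 5.44 in H3. At low altitude the lowest library was L5 with 5.03, the median was 6.20 and the highest was L1 with 7.47. In 6 of 9 low altitude libraries it lay above every high altitude one. The difference was 1.41 (SE 0.31, 95% interval 0.77 to 2.06), or 2.66-fold higher (edgeR adjusted p = 0.486).

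ENSGALG00000033351 had few reads, with 4 to 20 counts per library at high and 16 to 93 at low altitude. Its level ran from -1.40 through a median of -0.16 to 0.80 log2 CPM at high altitude, and from 0.54 through 1.29 to 3.30 at low altitude. In 7 of 9 low altitude libraries it lay above every high altitude library, the most of the 4 genes. L4 was far above the others, with the next at 1.74. The difference was 1.88 (SE 0.43, 95% interval 0.99 to 2.77; edgeR adjusted p = 0.486) and 1.44 without L4.

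**Figure D5:**
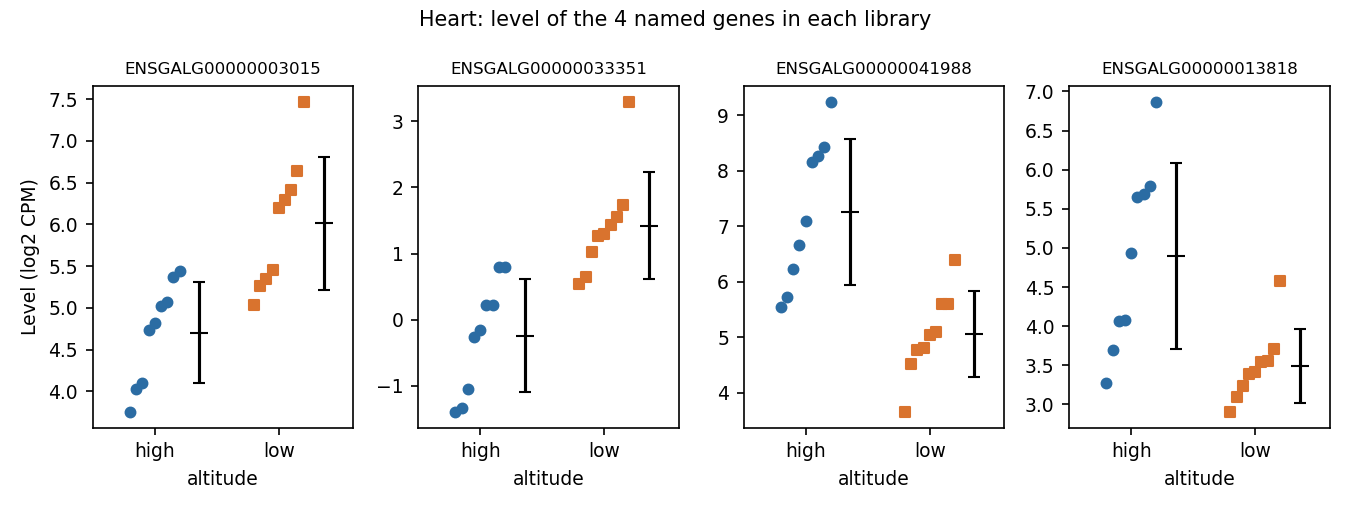
Level in log2 CPM (y axis, a separate scale in each panel) of the 4 named genes in each heart library by altitude, 1 point per library in ascending order, with the mean and SD of 9 libraries beside them. The groups overlap in every panel, most broadly for ENSGALG00000013818, and L4 stands alone at 3.30 for ENSGALG00000033351.

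The same identifiers were looked up in breast muscle and spleen, each tissue fitted alone. The numbers H1 to L9 are used again there, but the labels do not say whether a number is one bird, so these values may not be independent of the heart. ENSGALG00000041988 was lower at low altitude in both, in breast muscle by a log2 fold change of -1.14 (95% interval -1.88 to -0.41; edgeR adjusted p = 0.109) and in spleen by -1.13 (95% interval -1.87 to -0.38; edgeR adjusted p = 0.758). By DESeq2 its adjusted p in breast muscle was 0.0339. Libraries numbered H1 were the highest in heart, breast muscle and spleen alike, at 9.25, 10.5 and 6.89 log2 CPM. Those numbered H6 were the lowest at high altitude in heart and breast muscle and next to lowest in spleen, at 5.54, 7.42 and 3.81. Without H1 the log2 fold change was -0.91 in breast muscle and -0.82 in spleen. ENSGALG00000003015 had a log2 fold change of 0.37 in breast muscle (SE 0.54) and of 0.33 in spleen (SE 0.28). The breast muscle value ran from 0.08 without L3 to 0.98 without H2, and was 0.89 with limma-voom. ENSGALG00000013818 had -0.57 (SE 0.26) in spleen and 0 to 116 counts per breast muscle library, too few to be tested. ENSGALG00000033351 had at most 29 counts in any breast muscle library and at most 9 in any spleen library, and was tested in neither. Whether the difference in heart was larger than in the other tissues was not tested here.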

How the data were processed

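The deposited files hold whole-number counts per Ensembl gene identifier, 1 file per library, with no normalization by the authors apparent from them. The submitters' processing notes name HISAT2 2.0.4, FastQC, Cufflinks, Cuffdiff, featureCounts and the chicken build galGal4, with no role or order. The kit marks strand, per the labels' protocols. Whether counting used the strand is not stated, so values of overlapping, antisense or near-identical genes are uncertain. No row lacked a gene.

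The 18 heart libraries were fitted alone in edgeR 4.0.16 (R 4.3.3): default filter on low counts, TMM scaling, robust quasi-likelihood test, Benjamini-Hochberg adjustment. Standard errors are the fold change over the root of F. Levels are log2 CPM with a prior count of 2. Library values were set against each other by two-sided exact permutation over all 48620 splits. Limma 3.58.1 (voom) and DESeq2 1.42.0 were alternatives. The gene tests were tested on simulated counts. No pair of hearts held identical values, and the closest pair differed by more than counting noise (median chi-square per gene 1.01, against 0.455), so none was taken for a copy of another; separate birds are not shown by this.

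Libraries, bands, lists and the rule for named genes (the 2 smallest p per direction with an average of at least 1 log2 CPM) were chosen with earlier results of these data known. The lists by gene symbol could not be used. The count of genes with 6 or more libraries beyond the other group, the shares of counts by band and the bands without L4 were added after the data were seen.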

Additional observations from a re-analysis of the deposited data

Results flagged for a closer look

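In 44 sets of 9 values (library measures and named genes, by altitude and tissue), the library farthest out was tested for its gap to the nearest other one as a share of the range, against Dixon's critical value. Such a gap was found in 4 sets, where chance would give about 2.2. The sets share libraries and are not independent, so no excess is read from this. Of the 4 gaps, 3 concern L4. In low altitude heart its score on the first principal component was 93.6, with the next at 26.3 (gap 0.594 of the range), and its median Spearman correlation with the other hearts was 0.892, with the next at 0.923 (gap 0.507). L4 was also highest for ENSGALG00000033351, at 3.30 log2 CPM with the next at 1.74 (gap 0.564). For ENSGALG00000013818, L9 was highest among low altitude hearts, at 4.58 log2 CPM with the next at 3.71 (gap 0.519); without L9 the log2 fold change was -1.97 in place of -1.77.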

How the results depend on the processing

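No gene passed the adjusted threshold in heart with edgeR under RLE or upper-quartile factors, either other filter, log2 total count as a covariate, the replicate block or without the 20 most abundant genes or the 2 libraries of lowest correlation (L4 and H1), nor with limma-voom with or without quality weights; DESeq2 gave 22. With 1 library left out the number was 0 to 1, the 1 being ENSGALG00000029863 without H9 (log2 fold change 1.90, SE 0.30, edgeR adjusted p = 0.0435), named after its values were seen; with all libraries it had 1.64 (SE 0.32, adjusted p = 0.247). The number with an unadjusted p under 0.05 was 1428 with no filter on low counts, 1509 with quality weights and 476 to 1308 with 1 library left out. Genes 2-fold apart numbered 2088 with no filter and 303 with log2 total count as a covariate, against 178. The difference in total counts was 0.962 to 1.31 M with 1 library left out. The 4 named genes kept their sign in all settings and passed with DESeq2 alone (adjusted p 6.63e-05 to 0.0133). They were chosen by p in these same libraries, which all settings reuse, so the kept sign is no independent support. With quality weights ENSGALG00000041988 had -1.62. Replicate numbers are shared by the altitudes. With the replicate number as a block, 931 genes had an unadjusted edgeR p under 0.05, against 718. Deviations of same-numbered hearts correlated at -0.176 to 0.614, over 0.1 in 5 of 9 pairs. In 3 of the 9, the high altitude heart correlated best with the low altitude heart of its own number. The labels name no pairs, so the main fit used none. Whether hearts of the same number share anything was not tested. The lowest band could not be given under the strict filter, which leaves none of its genes.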
